A study of Danio rerio with 16 samples.

Results

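The embryonic haemoglobin genes of the zebrafish were examined as a family in dissected hearts. Members were all gene symbols of the count files that began with *hbae* or *hbbe* followed by a digit, with the 10 highest total counts to be kept. The pattern matched 10 of the 15419 genes, and all 10 were kept. Of these, 5 encode alpha chains (*hbae1.1*, *hbae1.2*, *hbae1.3*, *hbae3* and *hbae5*) and 5 encode beta chains (*hbbe1.1*, *hbbe1.2*, *hbbe1.3*, *hbbe2* and *hbbe3*). Their total counts over all libraries ranged from 663 to 128108 reads.

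Hearts were dissected at 48 h post-fertilization (hpf) from embryos homozygous for mutations in both *rbfox1l* and *rbfox2* (DKO, *rbfox1l*-/-; *rbfox2*-/-) and from sibling controls (CTRL). The labels give 8 biological replicates per group, and each library was made from a pool of hearts of Tubingen strain embryos carrying the *myl7:GFP* reporter, which marks heart muscle. The design text calls the controls wild type, whereas the sample labels call them siblings, and the genotypes of the pooled siblings are not given. The mutations were present in the whole embryo, and the methods state no step that removed blood from the dissected hearts. In bulk libraries of this kind, fewer red cells and less haemoglobin RNA per red cell cannot be told apart.

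Haemoglobin is the oxygen carrier of red blood cells, a tetramer of paired alpha and beta chains, each holding a heme group with its iron. Zebrafish, like other vertebrates, use one set of chains in the embryo and another in the adult, and the genes of both chains lie side by side in clusters. Red cells of the early embryo come from the primitive wave of blood formation and enter the circulation once the heart beats.

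Reads assigned to genes numbered 9321265 to 18783628 in DKO libraries and 8809208 to 12991978 in CTRL libraries. The targeted genes were lower in DKO hearts, *rbfox1l* with a log2 fold change of −2.78 (SE 0.22) and *rbfox2* with −1.55 (SE 0.20), and the groups overlapped for neither gene. The heart muscle marker *myl7* was abundant in both groups, at 7093 ± 2310 CPM (read counts scaled to library depth) in DKO and 14638 ± 3246 CPM in CTRL hearts (mean ± SD, n = 8 each). Throughout, CPM were computed from the reads on genes with factors from the trimmed mean of M values (TMM).

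All 10 embryonic haemoglobin genes fell in DKO hearts. Of the 10, all passed the thresholds on adjusted p, fold change and abundance (Benjamini-Hochberg adjusted p under 0.05 in edgeR's quasi-likelihood test, over 1.5-fold, FPKM over 5 in at least 1 library), whereas 4.66% of the 11750 tested genes did so in this direction. *hbae1.2*, *hbae5*, *hbbe2* and *hbbe3* met the FPKM threshold in CTRL libraries only, the group where they were high. On adjusted p alone in edgeR's test, 13.9% of the tested genes fell. In all 10 haemoglobin genes, the highest DKO library lay below the lowest CTRL library, which held for 4.38% of the tested genes. The median log2 fold change was −7.39 over the 10 genes and 0.02 over all tested genes. Mean CPM in DKO hearts was 0.432% to 2.64% of that in CTRL hearts. When all tested genes were ordered by log2 fold change, the 10 haemoglobin genes held the 6 lowest places and lay within the lowest 13, and the other 3 of these were *cahz*, *slc4a1a* and *zgc:163057*.

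**Figure D1:**
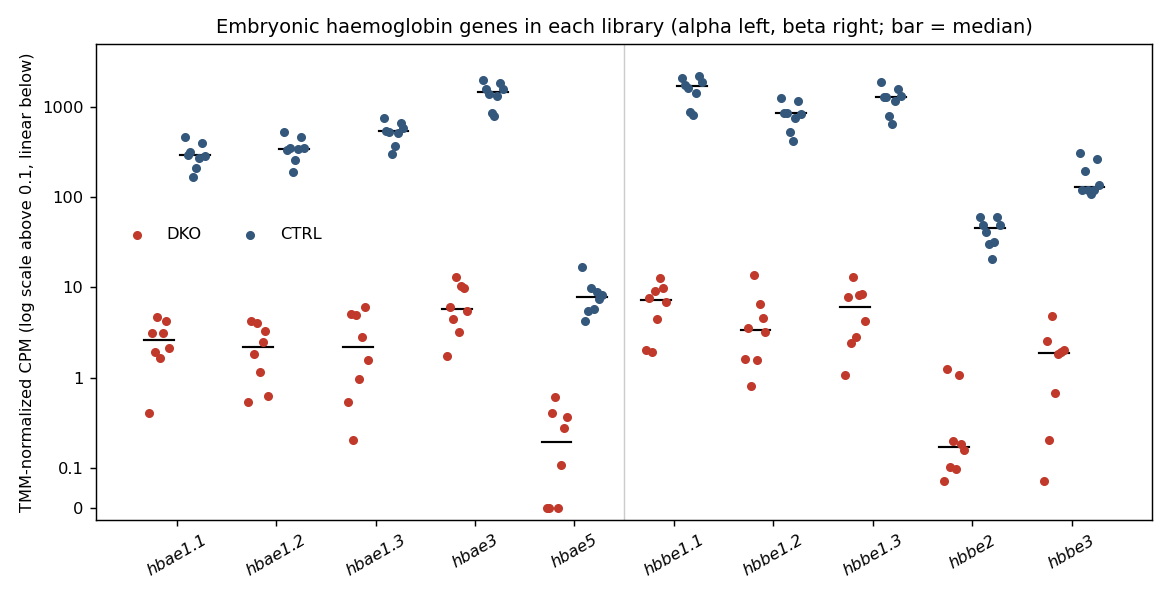
TMM-normalized CPM of each embryonic haemoglobin gene in each of the 8 DKO (red, left) and 8 CTRL (blue, right) libraries, on a log scale that is linear below 0.1; bars mark medians. In every gene all DKO points lie below all CTRL points, and 3 DKO libraries have no read of *hbae5*.

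Among the alpha genes, *hbae3* had the highest counts. Its lowest, median and highest levels were 1.75, 5.78 and 13.1 CPM in DKO hearts, against 790 (lowest), 1480 (median) and 1993 (highest) CPM in CTRL hearts. The lowest CTRL library thus exceeded the highest DKO library 60.5-fold, and the log2 fold change was −7.70 (SE 0.41, adjusted p = 9.25e-10, edgeR). *hbae1.3* ranged over 0.204 to 6.09 CPM (median 2.19) in DKO hearts and over 303 to 753 CPM (median 537) in CTRL hearts. Its low end in DKO came from replicate 3, which held 2 reads of this copy, and its log2 fold change was −7.56 (SE 0.50, adjusted p = 2.10e-08, edgeR). *hbae1.2* ranged over 0.538 to 4.21 CPM (median 2.16) in DKO hearts and over 188 to 527 CPM (median 345) in CTRL hearts. *hbae1.1* ranged over 0.404 to 4.65 CPM (median 2.61) in DKO hearts and over 166 to 470 CPM (median 291) in CTRL hearts. The groups of both copies were far apart, with log2 fold changes of −7.26 (SE 0.40) for *hbae1.2* and −6.81 (SE 0.36) for *hbae1.1*.

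*hbae5* was the scarcest member in both groups. It ranged over 0 to 0.6003 CPM (median 0.190) in DKO hearts and over 4.26 to 16.7 CPM (median 7.89) in CTRL hearts. All DKO libraries together held 27 reads of *hbae5*, with 0 in 3 libraries, against 636 reads in CTRL libraries. It had the smallest change of the family, −5.08 on the log2 scale (SE 0.53, adjusted p = 5.64e-07, edgeR), and CTRL replicate 1 stood above the other CTRL libraries, whose highest was 9.81 CPM.

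Among the beta genes, *hbbe1.1* had the highest counts and the largest change of the family. Its levels were 1.93 to 12.9 CPM (median 7.24) in DKO hearts and 809 to 2207 CPM (median 1703) in CTRL hearts. The lowest CTRL library exceeded the highest DKO library 63.0-fold, the widest gap of the 10 genes. *hbbe1.3* ranged over 1.08 to 12.9 CPM (median 5.98) in DKO hearts and over 649 to 1878 CPM (median 1289) in CTRL hearts. *hbbe1.2* ranged over 0.814 to 13.8 CPM (median 3.36) in DKO hearts and over 417 to 1255 CPM (median 849) in CTRL hearts. Its highest DKO value came from replicate 4, with 276 reads, and the next DKO library was at 6.59 CPM. The log2 fold changes were −7.69 (SE 0.47) for *hbbe1.3* and −7.51 (SE 0.53) for *hbbe1.2*, whose adjusted p was 4.58e-08 in edgeR's test.

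The remaining beta genes were less abundant. *hbbe3* ranged over 0.0673 to 4.85 CPM (median 1.87) in DKO hearts and over 109 to 307 CPM (median 128) in CTRL hearts, and fell by 6.51 on the log2 scale (SE 0.51, adjusted p = 1.56e-07, edgeR). *hbbe2* ranged over 0.0673 to 1.23 CPM (median 0.170) in DKO hearts and over 20.5 to 60.8 CPM (median 45.0) in CTRL hearts, and fell by 6.82 on the log2 scale (SE 0.45, adjusted p = 5.04e-09, edgeR). DKO libraries together held 39 reads of *hbbe2* and 218 reads of *hbbe3*, so counting error weighed more in DKO than in CTRL hearts for these copies. For *hbbe2* the coefficient of variation (CV) over DKO libraries was 122%, and a mean count of this size alone gives 45.3%. In CTRL hearts the CV of *hbbe2* was 33.9%, against 4.82% from counting.

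Several copies had their lowest or highest values in the same libraries, and correlations between copies were not computed. In the DKO group, replicate 1 was lowest or tied for lowest in 7 of the 10 genes and replicate 4 was highest in 6. In the CTRL group, replicate 5 was lowest in 6 genes and replicate 4 in 3, whereas replicate 1 was highest in 8. The 10 genes summed to 8.07 to 68.1 CPM (median 33.8) in DKO hearts and to 3641 to 9338 CPM (median 6728) in CTRL hearts. In raw reads these sums were 120 to 1362 per DKO library and 31397 to 101673 per CTRL library. As a share of all reads on genes, which depends on no normalization factor, the family held 0.000887% to 0.00752% (median 0.0034%) in DKO hearts and 0.314% to 0.826% (median 0.666%) in CTRL hearts. Both groups spread widely around their means, with a CV of the summed CPM of 61.5% in DKO and 31.1% in CTRL hearts, yet the lowest CTRL library exceeded the highest DKO library 53.4-fold.

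Alpha and beta sums were both lower in DKO hearts, with close log2 ratios. Alpha genes summed to 3.23 to 27.3 CPM (median 14.3) in DKO hearts and to 1520 to 3759 CPM (median 2675) in CTRL hearts. Beta genes summed to 4.84 to 40.9 CPM (median 19.5) in DKO hearts and to 2006 to 5580 CPM (median 4054) in CTRL hearts. The log2 ratio of mean CPM, DKO over CTRL, was −7.47 for the alpha sum and −7.64 for the beta sum. The sums and the shares are given as a description, without a test.

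The alpha share of haemoglobin reads, which compares reads within 1 library, was 38.1% to 61.7% (median 41.1%) in DKO hearts and 38.8% to 44.9% (median 40.1%) in CTRL hearts. Reads of beta genes thus outnumbered those of alpha genes in 7 of 8 DKO libraries and in all 8 CTRL libraries. Of the DKO libraries, 2 lay above and 2 below the CTRL range, and 5 had an exact 95% binomial interval that held the CTRL median. The exception with more alpha than beta reads was DKO replicate 3, at 61.7% of 141 reads (interval 53.1% to 69.8%). The mean share was 44.2% ± 7.91 in DKO and 40.5% ± 1.95 in CTRL hearts (SD, n = 8 each), a difference of 3.75 percentage points that was 1.25 points without DKO replicate 3. Intervals cover counting error only and treat each read as an independent draw. Reads carried no molecular identifiers, so copies of 1 molecule could not be told from separate molecules. The intervals here and below may thus be too narrow. From FPKM, which scale each gene's reads to its length as well as to depth, the median alpha share was 39.2% in DKO and 37.0% in CTRL hearts.

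**Figure D2:**
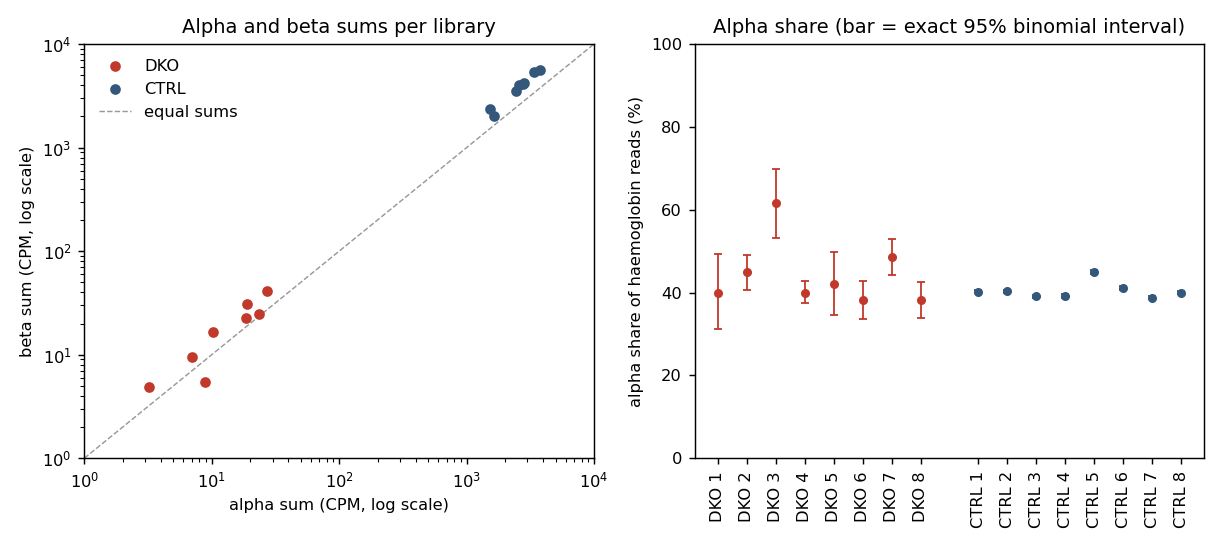
Left, summed CPM of the beta genes against the alpha genes in each library (log scales; dashed line, equal sums): DKO points lie between 3.23 and 27.3 alpha CPM and CTRL points between 1520 and 3759. Right, alpha share of haemoglobin reads in percent with the exact 95% binomial interval: DKO replicate 3 stands highest at 61.7%, and DKO intervals are wider because each library held 120 to 1362 haemoglobin reads.

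Within each chain, the proportions of the copies scattered more between DKO hearts than between CTRL hearts. DKO shares rested on 48 to 545 alpha and 54 to 817 beta reads per library. In CTRL libraries there were 12856 to 39451 alpha and 17296 to 62222 beta reads, so counting error was larger in DKO shares. How much of the scatter counting makes was not tested. The medians of the groups were close for some copies and apart for others. The share of *hbbe1.1* was 22.3% to 46.5% (median 40.7%) in DKO hearts and had a median of 40.8% in CTRL hearts. It lay below the CTRL range in 3 DKO libraries and above it in 1. Pooled over libraries, its share was 33.3% in DKO and 41.0% in CTRL hearts. DKO replicate 4, with 817 beta reads, had the lowest share. The share of *hbae3* was 33.1% to 54.9% (median 49.2%) in DKO hearts, against a median of 53.9% in CTRL hearts. *hbae1.1* was the copy with the most one-sided shift, taking 12.5% to 23.6% of alpha reads (median 17.6%) in DKO hearts and 10.3% to 12.8% (median 11.5%) in CTRL hearts. Its share lay above the CTRL range in 7 of 8 DKO libraries, and the binomial interval lay above the CTRL median in 6. The median share of *hbae1.3* was 16.1% in DKO and 20.3% in CTRL hearts, with 6 DKO libraries below the CTRL range and 2 above it. Its lowest share was in DKO replicate 3, with 2.30% of 87 alpha reads. For *hbbe3* the median share of beta reads was 7.35% in DKO and 4.92% in CTRL hearts, with 6 DKO libraries above the CTRL range and 1 below it. *hbbe1.2* took 33.8% of beta reads in DKO replicate 4, against a median of 18.7% over DKO and 21.4% over CTRL hearts. These shares are of uniquely aligned reads. The copies are close in sequence. Of all reads, 13.9% to 16.4% in DKO and 12.8% to 14.5% in CTRL libraries were listed as aligned at more than 1 place. These were given to no gene, and how many belonged to each haemoglobin gene cannot be read from the counts. Single copies, sums and shares all leave them out, by amounts that may differ between genes.

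Across CTRL hearts the abundant copies kept closer proportions than the scarce ones. *hbae3* took 48.3% to 57.7% of the alpha reads in CTRL hearts, followed by *hbae1.3* with 19.6% to 22.7%, *hbae1.2* with 12.0% to 15.8%, *hbae1.1* with 10.3% to 12.8% and *hbae5* with 0.154% to 0.646%. Of the beta reads in CTRL hearts, *hbbe1.1* took 37.3% to 44.4%, *hbbe1.3* 30.1% to 33.7%, *hbbe1.2* 20.0% to 22.5%, *hbbe3* 2.91% to 5.50% and *hbbe2* 0.909% to 1.301%. The CV of the share was lowest for *hbbe1.2* at 4.03% and highest for *hbae5* at 46.5%, with 23.9% for *hbbe3* and 11.0% for *hbbe2*, and the summed CPM varied between the same libraries with a CV of 31.1%.

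**Figure D3:**
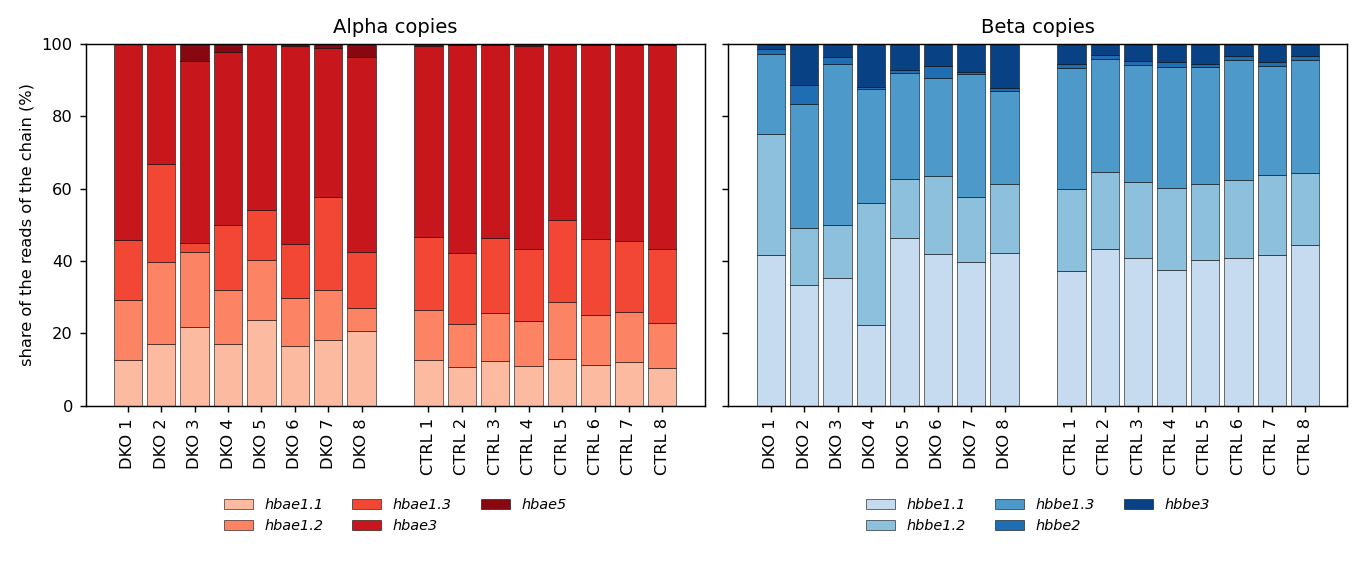
Share of alpha reads (left) and beta reads (right) taken by each copy, in percent, per library, with DKO replicates left of CTRL replicates. DKO columns vary more than CTRL columns, and they rest on fewer reads (48 to 545 alpha and 54 to 817 beta reads per library). The *hbae1.1* band is larger in 7 of 8 DKO libraries than in any CTRL library. In DKO replicate 4 the *hbbe1.2* band is 33.8%.

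Per unit of length, *hbbe1.1* was the most abundant member in both groups by median. Its deposited FPKM was 2.61 to 16.4 (median 9.38) in DKO hearts and 899 to 2563 (median 2187) in CTRL hearts. The order of median FPKM in DKO hearts was *hbbe1.1*, *hbbe1.3*, *hbae3*, *hbbe1.2*, *hbae1.1*, *hbae1.3*, *hbae1.2*, *hbbe3*, *hbbe2* and *hbae5*, but each gene exceeded the next in only 4 to 7 of 8 DKO libraries. *hbbe1.3* (median FPKM 6.09) was above *hbae3* (median FPKM 4.95) in 4 of 8 and *hbae1.1* above *hbae1.3* in 4 of 8, so these neighbours were not separated. In CTRL hearts *hbae1.3* stood before *hbae1.1*, with the order otherwise the same. There each gene exceeded the next in all 8 libraries, except that *hbbe1.3* (median FPKM 1292) exceeded *hbae3* (median FPKM 1232) in 5 of 8. The lengths behind the FPKM, 694 to 1175 bases for these genes, were fixed per gene and thus have no effect on the comparison between groups. The order of genes within a group does depend on them.

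The position of the genes in the RefSeq annotation of GRCz12tu, used here for names and neighbours only, split the family into a major and a minor cluster. In the major cluster, 7 members follow each other without another gene between them, in the order *hbbe1.1*, *hbae1.1*, *hbbe1.2*, *hbae1.2*, *hbbe1.3*, *hbae1.3* and *hbae3*. The other 3 members, *hbbe3*, *hbbe2* and *hbae5*, lie on another chromosome. The 7 members of the major cluster had log2 fold changes of −7.86 to −6.81, and those of the minor cluster −6.82 to −5.08. The minor cluster took 1.67% to 9.49% (median 5.54%) of haemoglobin reads in DKO hearts and 2.51% to 4.13% (median 3.67%) in CTRL hearts. Its share was above the CTRL range in 7 DKO libraries and below it in DKO replicate 1, which held 120 haemoglobin reads, and the binomial interval lay above the CTRL median in 4 of the 8 DKO libraries. All DKO libraries together held 284 reads of the minor cluster.

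Neighbouring alpha and beta genes differed in level. In FPKM, the ratio of *hbbe1.1* to its neighbour *hbae1.1* was 0.893 to 4.47 (median 2.29) in DKO hearts and 3.46 to 5.78 (median 4.73) in CTRL hearts. The ratio of *hbbe1.2* to *hbae1.2* was 0.566 to 6.37 (median 2.57) in DKO hearts and 2.06 to 3.58 (median 3.11) in CTRL hearts. For *hbbe1.3* over *hbae1.3* the ratio was 1.004 to 8.68 (median 1.92) in DKO hearts and 1.26 to 1.89 (median 1.73) in CTRL hearts. In the minor cluster, *hbbe2* over *hbae5* had a ratio of 0.399 to 15.96 (median 0.684) in the 5 DKO libraries with a read of *hbae5*, and of 4.98 to 18.3 (median 7.62) in CTRL hearts. By FPKM, the beta gene was thus the higher one of each of these pairs in all 8 CTRL libraries. Such ratios between genes depend on the lengths used, which were 694 bases for *hbae1.1*, 990 for *hbae1.2* and 714 for *hbae1.3*. The DKO ratios of *hbbe2* to *hbae5* rest on 1 to 10 reads of *hbbe2* and 1 to 12 of *hbae5* per library. Their median leaves out the libraries without a read of *hbae5*. With all 8 DKO libraries, *hbbe2* was the higher one in 5, and the ratio of summed FPKM was 2.72.

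Of the other globins, 2 of 5 tested genes fell and 3 did not pass the test, beside 13.9% of all tested genes that fell. On a scale set by 9 cardiomyocyte markers in place of all genes, 2 fell and 2 rose. That scale gave a median log2 fold change of 0.96 over all tested genes, in place of 0.02, and of 0.41 for these globins. With the fold and FPKM thresholds as well, it called 60 of all tested genes lower and 2847 higher. The share that passed on adjusted p alone was not computed on that scale, here or for the lists below. Of the 9 markers, 6 fell themselves in DKO hearts when scaled on all genes. The symbol *zgc:163057*, which RefSeq names *hbae4*, an alpha gene next to *hbbe3*, was outside the naming rule. It ranged over 0 to 0.387 CPM (median 0.025) in DKO hearts and over 2.58 to 10.2 CPM (median 4.403) in CTRL hearts, and fell by 5.54 on the log2 scale (SE 0.59, adjusted p = 8.04e-07, edgeR). Myoglobin (*mb*), the oxygen store of muscle, ranged over 24.7 to 75.3 CPM (median 56.5) in DKO hearts and over 345 to 538 CPM (median 393) in CTRL hearts, and fell by 2.94 on the log2 scale (SE 0.21, adjusted p = 1.25e-08, edgeR). The groups did not overlap for either gene. Cytoglobin (*cygb1*, 0.39), neuroglobin (*ngb*, 0.72) and globin X (*xgb*, −0.43) did not pass edgeR's test, with adjusted p of 0.156, 0.325 and 0.672 beside these log2 fold changes.

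The adult haemoglobin genes *hbaa1*, *hbaa2*, *hbba1* and *hbba2* were near the detection limit in both groups and were not tested. Other genes between and beside them in the annotation were not examined. In all 8 libraries of a group together, *hbaa1* had 29 reads in DKO and 28 in CTRL hearts, *hbaa2* 20 in DKO and 7 in CTRL, *hbba1* 33 in DKO and 33 in CTRL, and *hbba2* 39 in DKO and 47 in CTRL. The highest value of any of these in 1 library was 1.12 CPM in DKO and 3.19 CPM in CTRL hearts, both for *hbba2*. The embryonic genes had 3859 reads in DKO and 518474 reads in CTRL hearts over the same libraries. Embryonic reads thus far outnumbered the reads of these adult genes in both groups.

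Most of the listed genes that a red cell uses beside its globins changed by smaller amounts. Which of them other cells of the heart express as well was not tested, so the lists do not stand for red cells alone. In the list of red cell membrane proteins and enzymes, 9 of 12 tested genes fell at an adjusted p under 0.05 in edgeR's test and the other 3 did not pass, against 13.9% of all tested genes that fell and 13.2% that rose. The median log2 fold change of the list was −0.87. The red cell carbonic anhydrase *cahz* ranged over 0.632 to 1.91 CPM (median 0.981) in DKO hearts and over 76.2 to 230 CPM (median 133) in CTRL hearts, and fell by 6.99 on the log2 scale (SE 0.29). The anion exchanger band 3 (*slc4a1a*) ranged over 1.60 to 5.54 CPM (median 3.40) in DKO hearts and over 114 to 392.3 CPM (median 251) in CTRL hearts, and fell by 6.33 on the log2 scale (SE 0.30). Their changes lay within the range of the haemoglobin genes, and their groups did not overlap. The nucleotidase gene *nt5c2l1* (−3.58), the membrane skeleton genes *epb41b* (protein 4.1, −2.10), *add2* (adducin, −1.65) and *ank1a* (ankyrin, −0.71), and *creg1* (−0.96), *rhag* (an ammonium channel of the Rh complex, −0.77) and *bpgm* (which makes the regulator 2,3-bisphosphoglycerate, −0.62) fell by less on the log2 scale. The spectrin gene *sptb* (−0.51), the peroxiredoxin gene *prdx2* (−0.11) and the water channel gene *aqp1a.1* (0.32) did not pass. Scaled on the cardiomyocyte markers in place of all genes, 4 genes of this list fell and 2 rose. Of the 9 genes that had fallen when scaled on all genes, *ank1a*, *bpgm* and *rhag* changed sign. The median log2 fold change of the list was 0.07 on that scale, beside 0.96 over all tested genes. With the fold and FPKM thresholds as well, 60 of all tested genes were lower there and 2847 higher.

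Of the genes for heme synthesis and iron uptake, 8 of 14 tested fell and the other 6 did not pass, with a median log2 fold change of −0.42. Of all tested genes, 13.9% fell and 13.2% rose. The transferrin receptor gene *tfr1a*, which takes up iron, fell by 1.53 on the log2 scale (SE 0.21), with 3.77 to 9.79 CPM in DKO and 11.4 to 27.3 CPM in CTRL hearts. The enzyme genes of the heme pathway *ppox* (−1.23), *hmbsb* (−1.13), *hmbsa* (−0.81), *cpox* (−0.68), *alad* (−0.53) and *urod* (−0.39) and the mitochondrial carrier gene *slc25a39* (−0.42) fell as well. The last enzyme of the pathway, *fech* (−0.43), the mitochondrial iron importer *slc25a37* (−0.25) and the general first enzyme *alas1* (−0.15) did not pass the test, nor did *uros* (−0.31), *tfr1b* (−0.35) and *slc25a38b* (−0.35). On the cardiomyocyte marker scale 1 gene of the list fell and 6 rose. The median log2 fold change of the list was 0.51 there, beside 0.96 over all tested genes. Among all tested genes, 60 were lower and 2847 higher there with the fold and FPKM thresholds as well. Of the genes that had fallen when scaled on all genes, *alad*, *cpox*, *hmbsa*, *slc25a39* and *urod* changed sign on the marker scale. Sign changes among the genes that had not passed are not given here or for the other lists. All 10 embryonic haemoglobin genes remained lower on that scale.

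Regulators of red cell genes did not move as a block. Of 9 tested, 3 fell and 2 rose, beside 13.9% and 13.2% of all tested genes. *klf1*, the erythroid factor that activates adult beta globin in mammals, ranged over 0.305 to 3.91 CPM (median 1.08) in DKO hearts and over 7.09 to 17.3 CPM (median 12.5) in CTRL hearts, and fell by 3.15 on the log2 scale (SE 0.36, adjusted p = 1.97e-06, edgeR). *tal1* (−1.05) and *lmo2* (−0.78), early factors of blood and vessel formation, also fell. *myb*, a factor of definitive blood progenitors, rose by 1.32 (SE 0.26, adjusted p = 7.23e-04, edgeR) and *klf17*, a Krüppel-like factor, rose by 1.25 on the log2 scale (SE 0.25). *nfe2* (−0.63), *zfpm1* (−0.51), *ldb1a* (0.21) and *gfi1b* (0.31) did not pass. With the cardiomyocyte marker scaling 1 regulator fell and 4 rose. Of the regulators that had passed when scaled on all genes, *lmo2* changed sign. The median log2 fold change of the regulators was then 0.29, beside 0.96 over all tested genes. That scaling called 60 of all tested genes lower and 2847 higher, with the fold and FPKM thresholds as well.

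**Figure D4:**
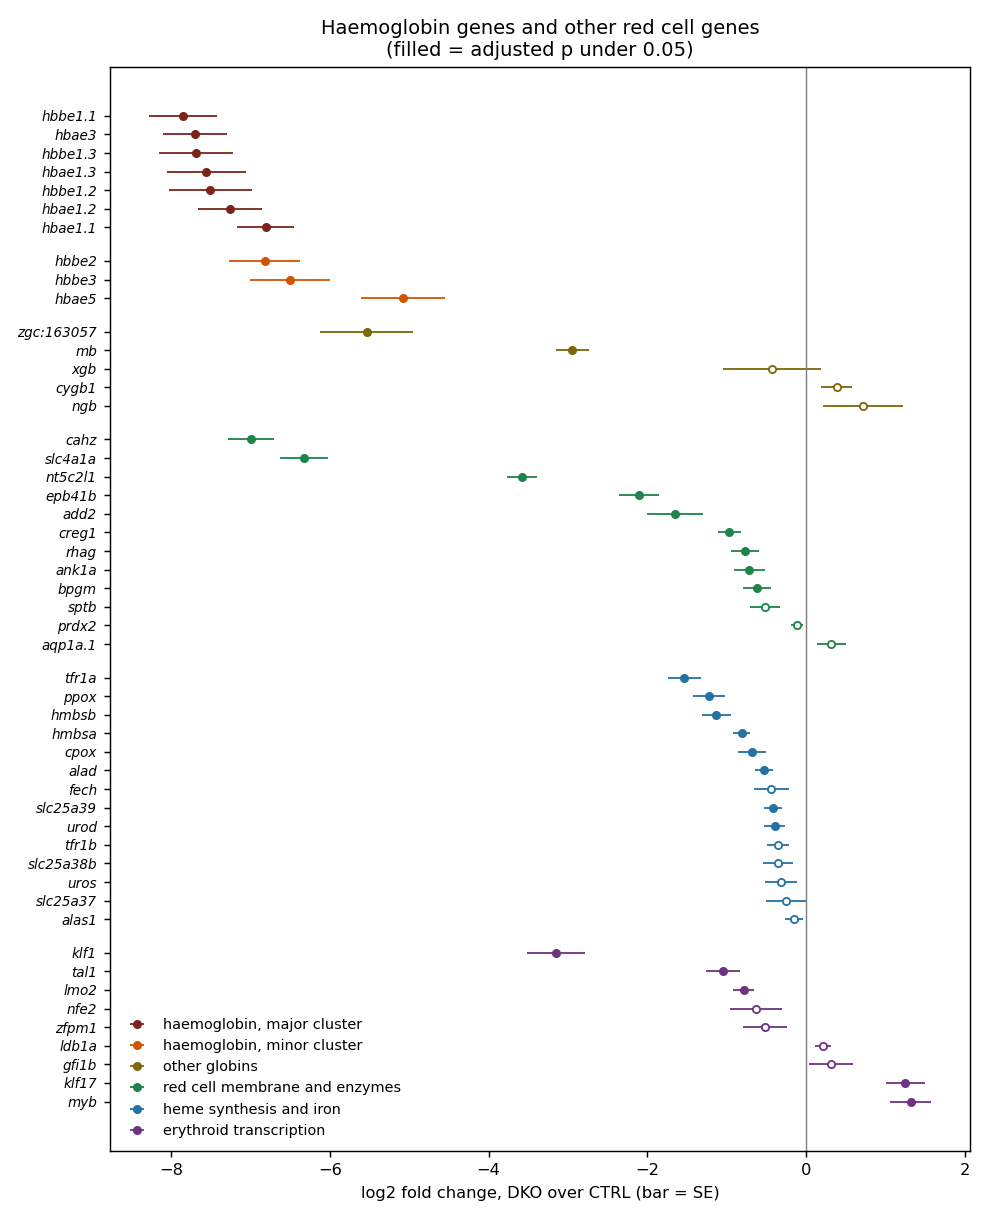
Log2 fold change, DKO over CTRL, with its SE, of the haemoglobin genes and of each tested gene of the red cell lists; filled points have an adjusted p under 0.05. The haemoglobin genes lie between −7.86 and −5.08, with *cahz* and *slc4a1a* among them, while most genes for heme synthesis, membrane proteins and transcription lie between −2.10 and 1.32.

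The defining red cell markers were uneven in these libraries. *slc4a1a* was abundant in CTRL hearts, as given above, but the erythroid heme enzyme gene *alas2* had 6 reads in DKO and 13 in CTRL libraries, and *gata1a*, the main erythroid transcription factor gene, had 0 in DKO and 1 in CTRL libraries. The gene models behind these counts were not checked, so the low counts do not show a lack of expression. Markers of other cells moved as well, and the counts below stand beside 13.9% of all tested genes that fell and 13.2% that rose. Of the cardiomyocyte markers 6 of 9 fell and 3 did not pass, and their sum was 10809 to 26129 CPM in DKO and 23351 to 49648 CPM in CTRL hearts. Of the endocardial and endothelial markers 7 of 12 fell and 5 did not pass (1 fell and 4 rose under the cardiomyocyte marker scaling), with sums of 799 to 1615 CPM in DKO and 1109 to 1704 CPM in CTRL hearts. Of the leukocyte markers 6 of 9 rose and 3 did not pass, with sums of 506 to 1158 CPM in DKO and 372 to 633 CPM in CTRL hearts, and *mpeg1.1* had no read. Of the epidermal markers 6 of 7 rose and 1 did not pass, with sums of 16998 to 36243 CPM in DKO and 4831 to 21096 CPM in CTRL hearts. Of 4 thrombocyte markers 1 fell, while under that scaling 2 rose, with sums of 43.1 to 125 CPM in DKO and 36.8 to 78.6 CPM in CTRL hearts. Under the cardiomyocyte marker scaling, median log2 fold changes were 0.32 (endocardial and endothelial) and 1.02 (thrombocyte), beside 0.96 over all tested genes. The 13.9% and 13.2% do not apply under that scaling. It called 60 of all tested genes lower and 2847 higher with the fold and FPKM thresholds as well. The marker levels thus differed between the groups in both directions, and their part in the haemoglobin result was not tested.

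The genes whose profiles were most like that of the haemoglobin family were sought over all 16 libraries, as the root mean square difference between a gene's centred log2 CPM and the mean centred profile of the members. The members themselves differed from their mean by 0.303 (*hbae1.1*) to 1.52 (*hbae5*). The nearest other genes were *cahz* (0.498), *slc4a1a* (0.868), *aqp8a.1* (1.36), *hspb11* (1.499) and *mir451a* (1.63). The aquaporin gene *aqp8a.1* ranged over 0 to 0.790 CPM in DKO and 6.61 to 19.0 CPM in CTRL hearts, and in the annotation it lies beyond *hbae5* with only *aqp8a.2* between them. The heat shock protein gene *hspb11* ranged over 4.57 to 10.6 CPM in DKO and 99.1 to 201 CPM in CTRL hearts. *mir451a*, the gene of a microRNA known from red cells, ranged over 0 to 0.407 CPM in DKO and 3.67 to 7.25 CPM in CTRL hearts. The profiles compared include the difference between the groups, so the nearest genes were chosen by it too. Counted from the lowest log2 fold change of all tested genes, *cahz* ranked 7, *slc4a1a* 11, *aqp8a.1* 14, *mir451a* 15 and *hspb11* 17. How much the spread within groups adds to the likeness was not tested. That these nearest genes were low in DKO hearts, without overlap of the groups, is thus no separate result of this search.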

How the data were processed

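RNA of 8 DKO and 8 CTRL heart pools was sequenced after poly(A) selection, with groups and replicate numbers as labelled. Per the labels and the paper's methods, the authors aligned reads with STAR 2.6.1a to GRCz11 and made the deposited counts (whole reads per RefSeq gene, not normalized) with HTSeq 0.11.2. The deposited FPKM are, per the methods, summed over isoforms by the authors; for the 10 members they equalled the count divided by depth and by 1 fixed length per gene. The authors' own test was DESeq2 1.32.0. Reads that overlapped no gene, 59.6% to 65.6% per library, were left out. So were reads aligned at more than 1 place, 12.8% to 16.4%, and reads ambiguous between genes, at most 0.0524%. Depth of 8809208 to 18783628 reads on genes sets the precision. Strand was not stated for the counting.

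Counts were tested with edgeR 4.0.16 in R 4.3.3 (filterByExpr, TMM, robust quasi-likelihood F-test, two-sided, all 16 libraries, no covariate), with Benjamini-Hochberg adjustment over 11750 genes. The SE was obtained from the size of the log2 fold change and the root of F. Log2 CPM used a prior count of 2. Alternatives were DESeq2 1.42.0, other scalings and filters, a replicate block, limma 3.58.1 on log2(FPKM + 1) and log2(FPKM + 0.1), and each library left out. Intervals (exact binomial) were computed with scipy 1.17.1 and figures drawn with matplotlib 3.10.9. The edgeR and DESeq2 tests were checked on simulated counts with the same dispersion for every gene and smaller changes than those of the members. The limma fits were not checked in this way. No 2 replicates agreed within sampling noise (lowest chi-square per gene of any pair 20.5 in DKO and 10.3 in CTRL).

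Named genes are all members, the tested genes of the lists of globins, heme and iron, red cell membrane and enzymes and erythroid transcription, the targeted genes and the 5 nearest profiles. Markers of cell types named on their own were chosen as defining or after their values were seen. The members and lists were chosen with earlier results of these data known.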

Additional observations from a re-analysis of the deposited data

Results flagged for a closer look

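In each group of 8 libraries, the extreme value was compared with the other 7 by its gap as a share of the group's range (Dixon's test at its 95% critical value), for 54 groups of values in all. The test marked 5, and chance marks about 1 in 20 groups. *hbae5* was 16.7 CPM in CTRL replicate 1, with the other CTRL libraries at 4.26 to 9.81 CPM. *hbbe1.2* was 13.8 CPM in DKO replicate 4, with the other DKO libraries at 0.814 to 6.59 CPM. The alpha share of haemoglobin reads was 61.7% in DKO replicate 3, with the others at 38.1% to 48.6%. In CTRL replicate 5 the alpha share was 44.9%, against 38.8% to 41.1% in the other CTRL libraries, and from FPKM it was 42.7%, against 35.9% to 38.3%.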

How the results depend on the processing

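All 10 haemoglobin genes were called lower under every alternative on counts and with each library left out. Their log2 fold changes moved by at most 0.17 with library size alone, by 0.85 to 0.99 with scaling on 9 cardiomyocyte markers, and by up to 2.42 for *hbae5* in limma on log2(FPKM + 1), where it was −2.66. The highest adjusted p was 8.89e-05 over these alternatives and 2.35e-06 with 1 library left out. Over all genes tested, the median of the log2 fold changes, 0.02, became 0.17 with library size alone and 0.96 with the marker scaling. The numbers of all genes called lower and higher, 548 and 390, became 415 and 524 with library size alone, 60 and 2847 with the marker scaling, and 1004 and 1065 without the FPKM threshold. The mean difference in alpha share, 3.75 points, was 4.41 points from FPKM and 2.24 points from pooled reads, an alternative added after the data had been seen, and 1.25 to 4.61 points with each library left out. The mean difference in minor cluster share was 2.73 points, and 2.25 to 3.37 points with each library left out, also added later.

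The replicate numbers gave no sign of pairing in expression. Correlations of same-numbered deviations were −0.27 to 0.11, and 0 of 8 libraries correlated best with their own number. This check cannot tell whether same-numbered pools came from the same clutch. With a replicate block, 10 genes were called, *hbbe1.1* had a log2 fold change of −7.94, and 557 genes were called lower and 409 higher overall. Single DKO libraries held 120 to 1362 haemoglobin reads, so that counting gives a CV of 10.3% for *hbae3* in DKO hearts, against 57.7% between libraries, and of 54.4% for *hbae5*, against 104%.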
